A study of Mus musculus with 4 samples.

Results

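The placental cathepsins Cts3, Cts6, Cts7, Cts8, Ctsj, Ctsm, Ctsq and Ctsr were followed in mouse blastocyst-derived outgrowths with and without Tip110. A gene was taken where a row of the value table carried exactly 1 distinct gene symbol equal to its name. All 8 had 1 such row each, among 30142 genes tested in all. The members were named from the gene family, with earlier results of these data known.

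RNA was measured on 4 Affymetrix whole-transcript arrays, 2 for wild-type outgrowths and 2 for Tip110-/- outgrowths. Per the labels, blastocysts of 3.5 days post coitum came from Tip110+/- intercrosses. Each was grown on its own for 4 to 6 days, without treatment, in a stem cell medium based on knockout serum replacement. Replicate 1 of both genotypes pooled 3 outgrowths and replicate 2 held 1 outgrowth; these are called the pooled and the single array here. The wild-type samples yielded 746 and 178 pg of RNA and the Tip110-/- samples 165 and 144 pg, so that each outgrowth gave 249 and 178 pg against 55.0 and 144 pg. The sources used here do not describe the Tip110 allele, and both natural matings and superovulation were used to obtain embryos. An outgrowth is a mixture: flattened trophoblast cells surround a core that derives from the inner cell mass. In such a mixture, fewer cells of a type and less RNA per cell cannot be told apart.

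Cathepsins are proteases of the lysosome, and most of them, the placental ones included, are cysteine proteases of the papain family. Rodents carry a group of cathepsin genes that arose by duplication from a relative of cathepsin L and is expressed mainly in the placenta. Cts7 and Cts8 are known from trophoblast giant cells, the large polyploid cells that invade the uterus and that also form when a blastocyst attaches in culture. Ctsq is known as a marker of the sinusoidal giant cells of the mature placenta. Like other cathepsins, these enzymes are made as proenzymes whose propeptide blocks the active site until it is cut off.

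The group is a tandem cluster on mouse chromosome 13. In the RefSeq annotation of assembly GRCm38.p6 the members stand in the order Ctsj, Ctsq, Ctsr, Cts6, Cts8, Cts7, Ctsm and Cts3, and all 8 protein-coding genes in this stretch are members. The cathepsin-like gene Ctsll3, the propeptide-like inhibitor genes Ctla2b and Ctla2a, and the trophoblast genes Tpbpb and Tpbpa lie next to Ctsj. The pseudogene Cts8-ps lies between Cts8 and Cts7.

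The sequences just before the start site show how close the copies are. They are given for Cts7 and Cts8, which were the members with clear signal, for Ctsr, which had the smallest p-value, and for Ctsm and Cts3, which were the most alike. Each is the 150 bases upstream of the annotated start, on the minus strand of GRCm38.p6, from the RefSeq promoter table. Capitals mark TTTAAA, a short stretch that resembles the core promoter box found at this distance from many start sites, and CCAAT on either strand, where ATTGG is its other strand. The Ctsm and Cts3 windows also hold tataaa shortly after TTTAAA, left unmarked.
Cts7, chr13:61358197-61358346: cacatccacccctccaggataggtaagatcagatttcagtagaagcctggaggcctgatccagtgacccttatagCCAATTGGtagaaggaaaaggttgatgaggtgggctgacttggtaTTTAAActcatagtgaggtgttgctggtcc
Cts8, chr13:61255349-61255498: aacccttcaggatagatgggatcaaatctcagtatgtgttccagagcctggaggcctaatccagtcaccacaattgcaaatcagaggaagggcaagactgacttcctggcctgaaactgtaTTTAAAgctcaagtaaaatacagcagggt
Ctsr, chr13:61164189-61164338: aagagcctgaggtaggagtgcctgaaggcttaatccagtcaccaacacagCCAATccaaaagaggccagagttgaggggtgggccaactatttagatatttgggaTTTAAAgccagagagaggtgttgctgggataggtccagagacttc
Ctsm, chr13:61541840-61541989: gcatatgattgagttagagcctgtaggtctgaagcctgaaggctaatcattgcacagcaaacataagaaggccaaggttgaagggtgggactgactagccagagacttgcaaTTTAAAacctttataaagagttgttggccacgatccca
Cts3, chr13:61570128-61570277: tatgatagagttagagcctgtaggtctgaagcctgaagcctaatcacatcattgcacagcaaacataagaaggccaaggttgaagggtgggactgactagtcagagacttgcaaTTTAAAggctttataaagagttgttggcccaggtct

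TTTAAA, which reads the same on both strands, stood in 7 of the 8 member windows, its first base 29 to 48 bases before the start where it lies nearest. The same letters stood in 6.75% of 32851 RefSeq promoter windows of that length. Only the Ctsq window did not hold them. CCAAT stood on either strand in 5 of 8 windows, those of Cts6, Cts7, Ctsj, Ctsq and Ctsr, against 24.5% of all windows. In Cts7 the match and its other strand overlap in 1 stretch. GATAA, searched on both strands, stood in 0 of 8 and in 13.3% of all windows. These letters were chosen after the sequences had been read, and a match is a description only. Over the 250 bases upstream, Ctsm and Cts3 were identical in 90.6% of aligned columns. The other pairs, of 28 in all, lay between 48.8% and 67.2%, Cts7 and Cts8 at 61.9%. Related genes may share array probes, and the probe sequences were not used here, so what each row measures of its close relatives is not known.

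Levels are the deposited log2 signals, given for the pooled and then the single array of a genotype. Background rows and the whole set of genes stand beside the members as references. The 23 antigenomic rows, whose probes match no mouse gene, reached at most 6.12 on the pooled and 5.80 on the single wild-type array, and 4.78 and 4.81 on the Tip110-/- arrays. A member above the highest of these rows on an array is called above background there. The same cutoff was used for other genes. It is higher on the wild-type arrays, so counts above background do not compare the genotypes on equal terms. The 95th percentile of these rows was 4.24 and 4.63 in wild-type against 4.69 and 4.71. Over all genes the median difference, Tip110-/- minus wild-type, was 0.15, and over the antigenomic rows it was 0.13, with both Tip110-/- arrays above both wild-type arrays in 17 of the 23.

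The targeted gene and the cell type markers were read first. Sart3, which encodes Tip110, read 4.94 and 5.98 on the wild-type arrays against 4.28 and 4.54 (difference -1.05 ± 0.39 SE, limma adjusted p = 0.386); whether its probes lie in the altered part of the gene is not known. It was above background only on the single wild-type array, so it is a weak check of the labels. Trophoblast giant cell markers were present on every array. Of 12 genes, 10 were above background on the single wild-type array and 9 on the pooled one. On the Tip110-/- arrays, where the cutoff was lower, 11 and 12 were above it. The placental lactogen gene Prl3d2, a giant cell hormone gene, was at 18.71 and 18.42 against 19.00 and 18.95. Tpbpa, the usual spongiotrophoblast marker, was at 3.83 and 4.04 against 4.38 and 4.03 and above background on no array. Other genes of its list were above it. Of 15 spongiotrophoblast and glycogen cell markers, 3 and 2 were above background on the wild-type arrays and 6 and 5 on the Tip110-/- arrays. Epiblast markers were above background in 12 of 13 genes on both wild-type arrays and in 10 and 8 on the Tip110-/- arrays. Fibroblast and maternal decidua markers, 8 genes each, were above background on no array.

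Cts7 and Cts8 gave clear signal, and the other members did not. Both were far above background on the pooled wild-type array and on both Tip110-/- arrays, and within background on the single wild-type array. The 6 other members lay between 3.43 and 4.83 on all arrays. Among these 24 values only that of Ctsq on the pooled Tip110-/- array was above background, at 4.83 against a cutoff of 4.78.

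**Figure D1:**
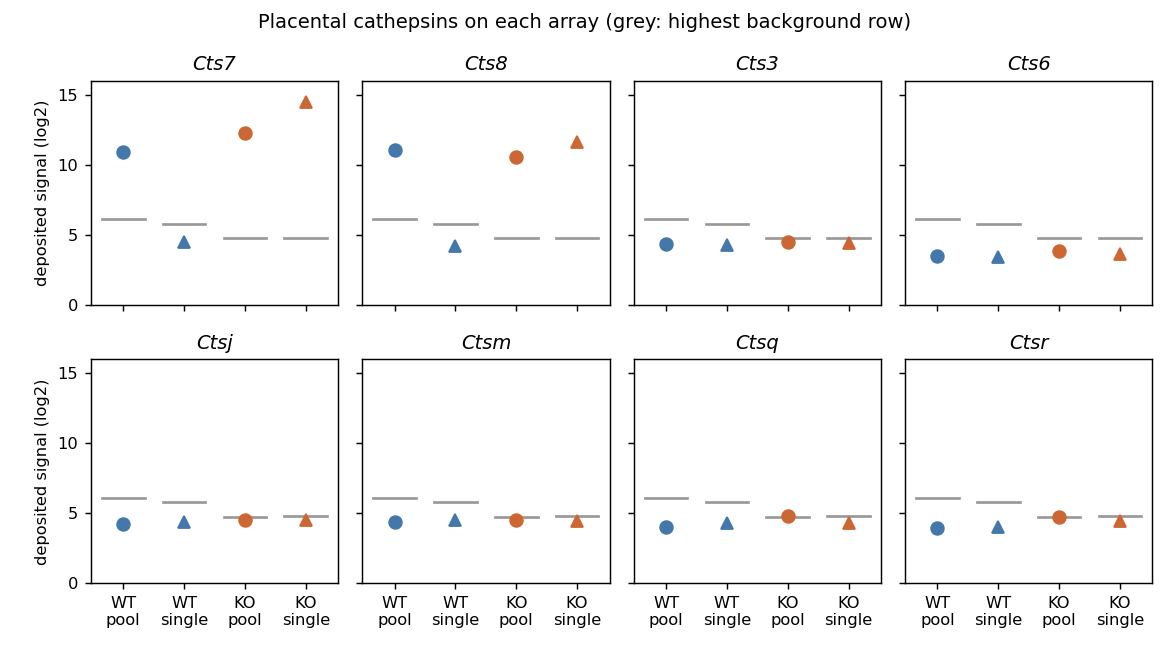
Deposited log2 signal of the 8 placental cathepsins (vertical axis) on each array, with wild-type (WT) in blue and Tip110-/- (KO) in orange, circles for pools of 3 outgrowths and triangles for single outgrowths; the grey line is the highest of 23 antigenomic background rows on that array. Cts7 and Cts8 are above it on 3 of 4 arrays and below it on the single wild-type array, and the other 6 genes stay near or below it.

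Cts7 was at 10.93 on the pooled and 4.48 on the single wild-type array, and at 12.28 and 14.54 on the Tip110-/- arrays. Both Tip110-/- arrays were above both wild-type arrays, but the wild-type arrays lay farther from each other than the pooled wild-type array lay from either Tip110-/- array. The wild-type mean was 7.71 ± 4.56 (SD, n = 2) and the Tip110-/- mean 13.41 ± 1.59 (SD, n = 2). They differed by 5.70 ± 2.21 (SE), a difference larger than that of 99.98% of all genes (limma adjusted p = 0.393); it was past the unadjusted threshold of 0.05 only narrowly, and passed in 6 of 13 alternatives. The size rested on the single wild-type array. Without it the difference was 2.48, no longer past the unadjusted threshold, and between the pooled arrays alone it was 1.35, or 2.55-fold. Without the pooled wild-type array it was 8.93. Because 1 of the 2 wild-type values was within background, the mean difference depends on the background level of that array.

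Cts8 was at 11.04 and 4.21 on the wild-type arrays and at 10.59 and 11.66 on the Tip110-/- arrays. Here the pooled wild-type array lay between the Tip110-/- arrays, so the genotypes overlapped. The difference was 3.50 ± 2.24 (SE), larger than that of 99.87% of all genes, and did not pass (limma adjusted p = 0.471). It was 0.08 without the single wild-type array and 6.92 without the pooled one. Between the pooled arrays Cts8 was lower in Tip110-/- by -0.45, and between the single outgrowths it was higher by 7.46. As for Cts7, the mean difference and its rank depend on the background level of the single wild-type array. For Cts7 both comparisons had the same sign, at 1.35 and 10.05. With 1 array of each kind in each genotype, neither within-kind difference has a replicate check.

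Cts7 and Cts8 thus shared the low value on the same outgrowth. Across all genes, 9 were lower on the single wild-type array than on each of the other arrays by at least 4 log2 units, a gap set after the values were seen. Cts7 and Cts8 were among these 9. The same count was 5 for the pooled wild-type array, 6 for the pooled and 11 for the single Tip110-/- array, with 0 members in each. The other protein-coding genes of the 9 were Arhgdib, Ceacam15, Il1r2, Pate11, Pate12 and Ttc9. Ceacam15 belongs to the carcinoembryonic antigen family, which has many placental members in mice, and Il1r2 encodes a decoy receptor for interleukin-1. In the other direction, 29 genes were higher on the single wild-type array alone by the same gap, against 15 for the pooled wild-type, 9 for the pooled and 26 for the single Tip110-/- array.

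Giant cell markers were also mostly lowest on the single wild-type array, in 10 of 12 genes, although 10 of 12 were above background there. This was not particular to them: that array was lowest in 10 of 14 primitive endoderm and 7 of 11 trophoblast progenitor markers. It was lowest in 8 of 15 spongiotrophoblast and glycogen cell and 4 of 8 syncytiotrophoblast and labyrinth markers, and in 0 of 13 epiblast markers. For maternal decidua and fibroblast markers it was lowest in 5 of 8 and 2 of 8, but these were above background on no array. The share over all genes was not counted, so the 10 of 12 has no reference. The summed signal of the giant cell markers, taken on the linear scale and written as log2, was 20.06 and 19.65 on the wild-type arrays against 20.29 and 20.49. Prl3d2 made up 34.5% to 42.8% of this sum, so the sum says little of the other markers. Cyp11a1, an enzyme of steroid hormone synthesis, was at 14.31 on the pooled wild-type array and 4.53 lower, at 9.78, on the single one, against 12.00 and 12.96. Prl4a1, of the same list, went the other way in wild-type, at 4.16 on the pooled array and 9.04 on the single one. In Tip110-/- it was at 9.28 and 10.73. Hand1, a basic helix-loop-helix factor needed for giant cell formation, was at 9.75 and 9.97 against 9.07 and 11.16. The part of cell composition in the Cts7 and Cts8 values was not tested. The RNA per outgrowth was lower in both Tip110-/- arrays and second highest on the single wild-type array, and its part was not tested either.

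The genes whose pattern over the 4 arrays was most like that of Cts7 were Ttc9, Ceacam15 and Pate11, among 19035 protein-coding genes. Likeness was measured as the root mean square difference after each gene's own mean was taken away, and was 0.67, 0.95 and 1.04 log2 units. The same 3 genes were closest to Cts8, in the order Ceacam15 at 0.45, Pate11 at 0.45 and Ttc9 at 0.60. Cts7 and Cts8 differed from each other by 1.19. Ceacam15 was at 11.99 and 4.44 in wild-type and at 11.98 and 12.92 in Tip110-/-. Ttc9 was at 11.14 and 5.14 against 11.85 and 13.41. All of these share the low value on the single wild-type array, and 4 arrays are few for such an ordering.

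Ctsr had the smallest p-value of the members, from values at the level of background. It was at 3.94 and 4.03 in wild-type and at 4.73 and 4.45 in Tip110-/-. The groups did not overlap, and the difference was 0.60 ± 0.18 (SE; limma adjusted p = 0.345). With each array centred on its median, it was 0.44, still past the unadjusted threshold. In that fit the median difference of all genes was -0.017. No value of Ctsr was above the highest antigenomic row.

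Ctsq, the sinusoidal giant cell gene, was at 4.00 and 4.28 in wild-type and at 4.83 and 4.32 in Tip110-/-. Its difference of 0.43 ± 0.24 (SE) came mostly from the pooled Tip110-/- array (limma adjusted p = 0.443). Between the single outgrowths it was 0.03. Cts6 was at 3.49 and 3.43 against 3.89 and 3.66, a difference of 0.31 ± 0.13 (SE; limma adjusted p = 0.396). Without the single Tip110-/- array the difference was 0.69 for Ctsq and 0.43 for Cts6, and both then passed the unadjusted threshold.

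Ctsj was at 4.24 and 4.39 against 4.52 and 4.55. Ctsm was at 4.41 and 4.53 against 4.54 and 4.47, and Cts3 at 4.37 and 4.32 against 4.48 and 4.45. The groups of Ctsj and Cts3 did not overlap, while those of Ctsm did. The differences were 0.22, 0.03 and 0.12, and none passed (limma adjusted p = 0.517, 0.935 and 0.692). Those of Ctsm and Cts3 were below the median of all genes, and both turned negative when the arrays were put on a common scale. For these placental proteases no level above background was detectable with these arrays.

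Over the 8 members, 2 were higher in Tip110-/- at an unadjusted limma p under 0.05, Cts7 and Ctsr, 0 were lower and 6 did not pass. Among all genes 8.99% were higher and 3.67% lower by the same rule. By the adjusted limma p, 0 members passed, as did 0% of all genes. In 6 of 8 members both Tip110-/- arrays lay above both wild-type arrays, against 39.9% of all genes and 17 of the 23 antigenomic rows. The member count is thus near that of the background rows. The member median was 0.37, and 6 of the 8 were above the median of all genes. The count of 2 became 0 without the single wild-type array and 0 without the pooled Tip110-/- array. It was 3 without the single Tip110-/- array, when Cts6, Ctsq and Ctsr passed. Without the pooled wild-type array the 2 were Cts7 and Cts8.

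**Figure D2:**
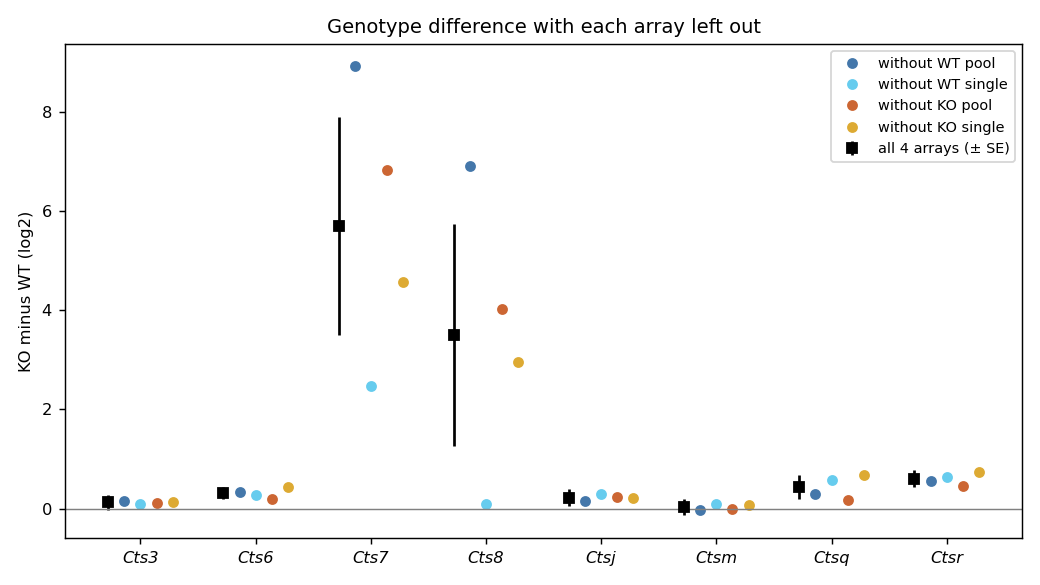
Difference between genotypes, Tip110-/- (KO) minus wild-type (WT) in log2 units, for each placental cathepsin with all 4 arrays (black squares, ± SE from limma) and with 1 array left out (coloured points). Without the single wild-type array Cts7 moves from 5.70 to 2.48 and Cts8 from 3.50 to 0.08. The other 6 genes lie between -0.03 and 0.75 in every case.

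The neighbours of the members were then compared. Ctla2a and Ctla2b, whose small proteins resemble the propeptide of a cysteine cathepsin and inhibit cathepsin L-like enzymes, were higher in both Tip110-/- arrays. Ctla2b was at 6.95 and 5.66 in wild-type and at 8.70 and 10.10 in Tip110-/-. Its groups did not overlap, and the difference was 3.09 ± 0.74 (SE; limma adjusted p = 0.334). With each array left out in turn it ranged from 2.39 to 3.79 and stayed under an unadjusted p of 0.05. Ctla2a was at 6.38 and 5.40 against 7.27 and 10.22, a difference of 2.85 ± 1.06 (SE; limma adjusted p = 0.386). It was 1.38 without the single Tip110-/- array, 4.32 without the pooled one, 2.36 without the single wild-type array and 3.34 without the pooled one. Of these 4 fits, it stayed past the unadjusted threshold only without the pooled Tip110-/- array. On the single wild-type array both inhibitor genes were below the highest antigenomic row, 5.80, as were Cts7 and Cts8. The inhibitor genes lay above the 95th percentile of those rows, 4.63, while Cts7 and Cts8 lay below it. Ctla2a and Ctla2b are close copies and may share probes.

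Ctsll3, which lies beside Ctla2b, had the opposite pattern on that array. It was at 7.72 and 11.90 in wild-type and at 7.62 and 8.07 in Tip110-/-, so that only the single wild-type array stood high. The difference was -1.97 ± 1.41 (SE; limma adjusted p = 0.502), and without that array it was 0.12. Tpbpb was at 4.06 and 4.20 against 4.37 and 4.40. The pseudogene Cts8-ps was at 4.01 and 3.70 against 4.23 and 4.64, a difference of 0.58 (limma adjusted p = 0.385). It did not follow Cts8: on the pooled wild-type array, where Cts8 was at 11.04, it was within background. Of the 6 listed neighbours, 3 were higher at an unadjusted p under 0.05, 0 were lower and 3 did not pass, with a median of 0.43. These counts, and those of the lists that follow, stand beside 8.99% of all genes higher and 3.67% lower by the same rule, and a median of 0.15.

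**Figure D3:**
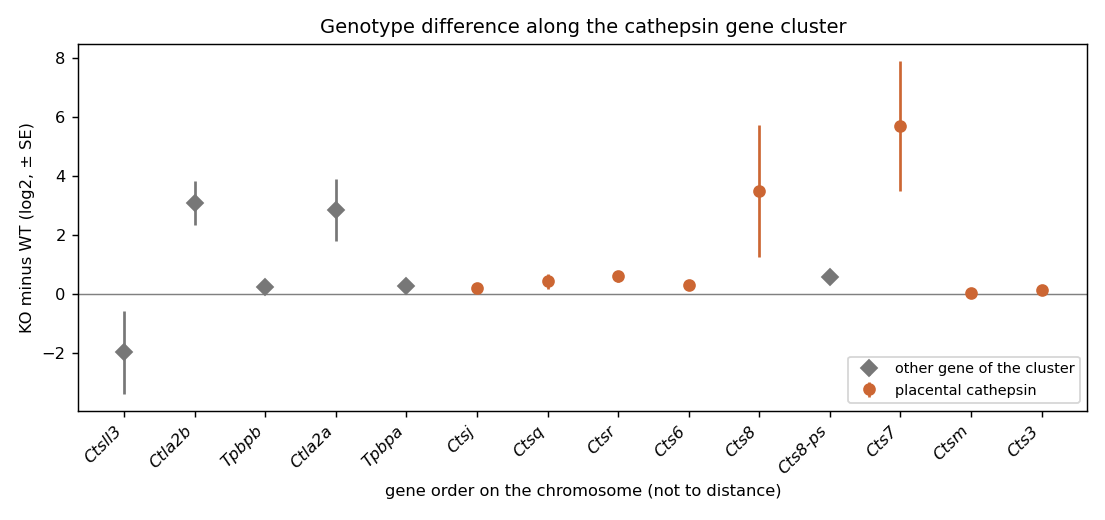
Difference between genotypes, Tip110-/- (KO) minus wild-type (WT) in log2 units ± SE from limma, for 14 genes of the cluster in their order on the chromosome, with placental cathepsins as orange circles and the other listed genes as grey diamonds. Cts7, Cts8, Ctla2a and Ctla2b lie at 2.85 or more, Ctsll3 lies at -1.97, and the other genes lie between 0.03 and 0.60.

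Cathepsins outside the placental group were read next. Of 13 measured, 1 was higher at an unadjusted p under 0.05, 0 were lower and 12 did not pass, with a median of 0.12. The 1 was Ctsk, the collagen-degrading cathepsin of osteoclasts, at 3.21 and 3.10 against 3.49 and 3.60, above background on no array. Ctsb, an abundant lysosomal cathepsin, was at 14.79 and 13.90 in wild-type and at 14.76 and 15.22 in Tip110-/- (difference 0.64, limma adjusted p = 0.476). Ctse and Ctss differed by 0.17 and 0.20 from values within background. Ctsl, the nearest widely expressed relative and named here outside the fixed rule, was at 13.16 and 12.44 against 12.46 and 13.01, a difference of -0.07 ± 0.49 (SE). Its values overlapped between genotypes, and on the single wild-type array it was not at background.

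Among 18 inhibitors of cysteine cathepsins, 5 were higher at an unadjusted p under 0.05, 0 were lower and 13 did not pass, with a median of 0.24. The 5 were Ctla2a, Ctla2b, the stefins Stfa2 and Stfa2l1, and the cystatin Cst12. Stfa2 was at 3.37 and 3.52 against 4.14 and 4.09 (difference 0.67, limma adjusted p = 0.318). Stfa2l1 differed by 0.66 and Cst12 by 0.39, and like Stfa2 they were above background on no array. Stefins are intracellular inhibitors and cystatins mostly secreted ones.

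Of 16 genes for the sorting of lysosomal enzymes and for lysosomal function, 1 was lower, 0 were higher and 15 did not pass, with a median of -0.23. The 1 was Mcoln1, which encodes a cation channel of the lysosomal membrane, at 8.04 and 8.08 against 6.57 and 6.71. Its groups did not overlap, and the difference was -1.42 ± 0.40 (SE; limma adjusted p = 0.343). With an array left out it ranged from -1.35 to -1.49 and no longer passed the unadjusted threshold. Atp6v1h, a subunit of the proton pump that acidifies lysosomes, differed by -1.26 (limma adjusted p = 0.396). Nagpa and Gnptg, which help to make the mannose 6-phosphate tag of lysosomal enzymes, differed by -0.79 and -1.01 and did not pass.

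**Figure D4:**
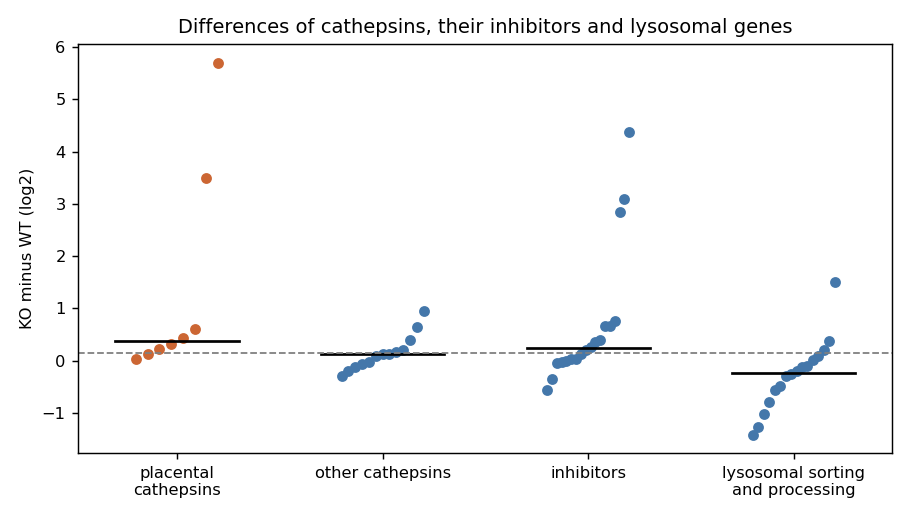
Difference between genotypes, Tip110-/- (KO) minus wild-type (WT) in log2 units, for each gene of 4 lists, with the list median as a black bar and the median of all genes, 0.15, as a dashed line. Medians are 0.37 for the placental cathepsins, 0.12 for other cathepsins, 0.24 for inhibitors and -0.23 for lysosomal genes, and Cts7 and Cts8 stand above the rest of their list.

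Markers of trophoblast and epiblast cells also differed by the unadjusted threshold, and 0 of them passed the adjusted limma p. Of 12 giant cell markers 6 were higher at an unadjusted limma p under 0.05 and 0 lower, and of 15 spongiotrophoblast and glycogen cell markers 6 were higher and 0 lower. The summed signal of the latter, written as log2, was 11.56 and 11.18 on the wild-type arrays against 15.75 and 17.69. Prl5a1, a gene of the prolactin family, made up 64.8% to 91.0% of that sum, and 9 of the 15 markers, Tpbpa and Tpbpb among them, were above background on no array. Of the same list, Prl8a1 was at 8.78 and 6.62 in wild-type against 11.86 and 13.75. Prl8a9 was at 4.28 and 4.74 against 8.86 and 11.23. Of 13 epiblast markers 0 were higher and 11 lower, with summed signals of 18.73 and 18.89 against 17.09 and 15.39. Dppa5a, at 18.61 and 18.70 against 17.06 and 15.35, made up 87.9% to 98.1% of the epiblast sum. Of 7 macrophage and blood markers, 4 were lowest on the single wild-type array and 3 on the pooled one. Their summed signals were 11.09 and 8.20 in wild-type against 10.32 and 10.63. This sum came from Csf1r and Cd68, at 4.80 and 7.69 on the single wild-type array, at 9.61 and 10.39 on the pooled one and between 6.91 and 10.42 in Tip110-/-. Which cells the signal of these genes came from was not tested. Of the 7 genes of that list, 5 were within background on all 4 arrays, Ptprc and Adgre1 among them. Summed signals of trophoblast progenitor markers were 17.81 and 17.27 against 17.80 and 18.53, and those of primitive endoderm markers 13.19 and 12.22 against 11.63 and 12.32. The part of these cell types in the cathepsin values was not tested.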

How the data were processed

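The authors deposited log2 signal, 1 value per row and array, for 72688 rows. Base 2 was read from their range, since no source states it. The tools named, per the submitters' processing notes, are Transcriptome Analysis Console and Affymetrix Expression Console. The normalization steps and the build were not given in the sources used here. For the RNA labelled per array the sample labels give 144 pg and the series' design text 100 pg; these differ, and which holds is not known.

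Of 65956 transcript cluster rows, 30604 with 1 distinct symbol were kept, updated by Entrez ID where possible (22818 rows), with the row of highest mean for each of 30142 genes. Genotype was tested with limma 3.58.1 in R 4.3.3 (lmFit, eBayes with trend), two-sided, with Benjamini-Hochberg adjustment over all genes and a threshold of 0.05. The fit was also run on simulated data, with normally distributed values and limma's own estimate of the spread. That run checks the code only. It says nothing of genes at background on only some arrays of a group, such as Cts7 and Cts8. Promoters were aligned with Biopython 1.88.

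The members and lists were chosen with earlier results of these data known. The genes named by rule were all members and cluster neighbours, up to 4 genes of smallest p per list, and Sart3, Hand1 and Tpbpa. Added after values were seen were Ctsl, Prl3d2, Prl4a1, Cyp11a1, Prl5a1, Prl8a1, Prl8a9, Dppa5a, Csf1r, Cd68, Ptprc and Adgre1. So were the genes low on 1 array and those in the closing section. With 2 arrays per group, their number limits the precision. Nothing in the labels says that equal replicate numbers share a litter or day.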

Additional observations from a re-analysis of the deposited data

Results flagged for a closer look

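The difference between genotypes, Tip110-/- minus wild-type, had opposite signs in the pooled and the single outgrowths for 2 of the 8 members. For Cts8 it was -0.45 between the pools and 7.46 between the single outgrowths. The single wild-type value of Cts8, 4.21, was within background, so the size of 7.46 depends on that array's background level. For Ctsm it was 0.13 and -0.069, from values within background. Each is the difference of 1 array from 1 array, and whether the differences differ was not tested.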

How the results depend on the processing

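Under all 13 alternatives 0 members passed the adjusted limma threshold; the smallest member adjusted p was 0.222. The count of 2 members at an unadjusted p under 0.05 was 1 with arrays centred, without an intensity trend and with array weights. It was 0 with genes above the median gene only, which leaves out Cts6 and Ctsr, and 0 to 3 with an array left out. The member median of 0.37 was 0.20 with quantile normalization, 0.20 with centring, 0.195 with cyclic loess and 0.22 to 0.56 with an array left out; the 3 scalings bring the median of all genes to between -0.02 and 0.01. Under quantile normalization, centring and cyclic loess, in that order, Cts3 was at -0.028, -0.044 and -0.038 and Ctsm at -0.11, -0.14 and -0.12. With an array left out Ctsm ranged from -0.031 without wild-type replicate 1 to 0.093 without wild-type replicate 2, and was at -0.0069 without Tip110-/- replicate 1. Under quantile normalization Ctse was at -0.027 and Ctss at -0.0002, and with cyclic loess Ctse was at -0.017. Ctsll3 ranged from -4.06 without wild-type replicate 1 to 0.12 without wild-type replicate 2. The other 302 of 314 single-gene values kept their direction. A fit with an array left out assumes that the lone array varies like the other group.

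With the replicate number as a block the count of members stayed at 2, Cts7 and Ctsr (limma adjusted p = 0.431 for each), and the member median stayed at 0.37. The correlation of replicate deviations between genotypes over genes was -0.09, and the number also separates pools from single outgrowths.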

Other observations

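Some inhibitor and sorting genes stood apart on 1 array and are given as values chosen after they were seen. Stfa1, a stefin, was at 11.61 on the pooled Tip110-/- array, against 4.41 and 3.77 in wild-type and 5.34 on the single Tip110-/- array. Its relatives Stfa2 and Stfa2l1 stayed within background there, at 4.14 and 4.00. M6pr, a receptor that carries tagged enzymes to lysosomes, was at 12.57 on the single Tip110-/- array and between 9.56 and 10.03 on the others. Il1r2, low together with Cts7 and Cts8 on the single wild-type array at 4.05, was at 10.24 on the pooled wild-type array and at 9.43 and 8.62 in Tip110-/-. Of the abundant inhibitors, Cst3 was at 13.74 and 12.46 against 12.90 and 13.29, and Cstb at 15.99 and 15.16 against 16.11 and 16.55.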
